A study of Mus musculus with 16 samples.

Results

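Mouse RAW 264.7 macrophage-like cells carrying an siRNA against Cebpb were compared with the same cells carrying a control siRNA, both left without any stimulus. The comparison was chosen by the labels of the libraries, and it takes 8 of the 16 libraries of the study: 4 with Cebpb siRNA and 4 with control siRNA, each group made up of 2 libraries from each of 2 experiments. All of these cells had been transfected with 25 nM siRNA in a lipid reagent for 24 h, and the label for the stimulating agent is none in both groups. The other 8 libraries had the same siRNAs and received isoproterenol, an agonist of β-adrenergic receptors, and they enter 1 comparison near the end. The study's title names C/EBPβ as a regulator of M2 genes, those of alternative activation, under β-adrenergic stimulation. The design text counts the 4 libraries of a condition as biological replicates, and p-values measure the spread between these libraries. Of 52636 entries in the table, 10768 genes were above the lower limit of the values in at least 4 of the 8 libraries and were tested.

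C/EBPβ, the product of Cebpb, is a basic leucine zipper transcription factor of myeloid cells and adipocytes, which binds DNA as a dimer with itself or with relatives such as C/EBPα. In macrophages it is known for its part in the genes of inflammation and in Arg1 and other genes of alternative activation. A small interfering RNA is a short duplex whose guide strand is loaded into an Argonaute protein and directs the cleavage of a fully matching transcript. The same strand can also lower transcripts that match only the bases near its 5′ end, the seed, most often through sites in their 3′ untranslated region (UTR). RAW 264.7 is a transformed line that proliferates in culture. Each siRNA was a single commercial product, so that a change following the loss of C/EBPβ and a change following the sequence of the siRNA cannot be told apart in this design.

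RNA was sequenced from the 3′ end of transcripts, and levels are given in reads per 10⁶ reads of the library (RPM), unscaled. Where 4 values of a group are listed, they are replicates 1 and 2 of experiment 1 followed by replicates 1 and 2 of experiment 2. A level at or below 1 RPM is listed as 0. Library size ran over 9.42 to 25.2 M reads with Cebpb siRNA and 19.1 to 22.8 M with control siRNA, and the smallest library was replicate 2 of experiment 2 with Cebpb siRNA. Principal component 1 accounted for 71.4% of the variance and separated the siRNAs, while the 2nd, with 13.5%, separated the experiments. Unmapped reads made up 6.96% ± 0.577 with Cebpb siRNA and 5.45% ± 0.343 with control siRNA, and mt-Rnr2, the mitochondrial large ribosomal RNA, 26452 ± 1187 and 18695 ± 1188 RPM (SD, n = 4 each). The exact two-sided permutation p was 0.0286 in each case, which is the lowest p possible with 4 libraries a group, and 0.0952 after Benjamini-Hochberg adjustment over 10 library measures; the part of these differences in the results was not tested.

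Cebpb itself (ENSMUSG00000056501.3, plus strand of chromosome 2, 167688915 to 167690418 in GRCm38) had 11.8, 25.0, 21.8 and 33.1 RPM in the Cebpb siRNA libraries, against 74.5, 61.3, 81.4 and 87.3 RPM in the control siRNA libraries. The groups did not overlap, and the transcript stood at 30.3% of its control level (log2 fold change −1.72 ± 0.19, standard error, adjusted p = 3.53e-06 by limma across all tested genes). The log2 fold change was −1.93 in experiment 1 and −1.52 in experiment 2.

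The change reached most of the transcriptome. Of the tested genes 61.3% passed an adjusted p of 0.05: 3378 genes (31.4%) were higher with Cebpb siRNA and 3225 (29.9%) lower. Changes of 2-fold or more were called up in 508 genes (4.72%) and down in 730 (6.78%), and changes of 4-fold or more in 46 and 60. For 5126 genes (47.6%) the 4 libraries of one group lay wholly above the 4 of the other. The median log2 fold change over all tested genes was 0.015, which the scaling between libraries holds close to no change by its construction. Each list below is to be read against this median and against these shares. Without scaling between libraries the split was 2647 higher and 3803 lower, and the median was −0.076. Since these are bulk samples, fewer cells of a type and less RNA per cell cannot be told apart for any gene named here.

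Of the C/EBP family 7 members were tested, and 4 fell, Cebpb included. Cebpa, which encodes C/EBPα, was listed at 0 in the 4 Cebpb siRNA libraries and had 2.83, 1.405, 1.39 and 1.65 RPM with control siRNA. It entered the test only through the control libraries, the group in which it is high, and its call as lower was lost in limma without replicate 1 of experiment 1 (adjusted p = 0.0756) with control siRNA. Ddit3 (CHOP), a stress-induced partner that inhibits other C/EBPs, had 21.2, 19.6, 24.7 and 16.5 RPM with Cebpb siRNA, against 45.5, 43.8, 53.3 and 54.2 RPM with control siRNA (−1.18 ± 0.10), and Cebpg fell by 0.43. Cebpd, which encodes C/EBPδ, was the 1 member that rose. It had 22.9, 21.97, 15.6 and 18.7 RPM with Cebpb siRNA, against 12.8, 11.6, 10.4 and 11.3 RPM with control siRNA, without overlap (0.86 ± 0.10, adjusted p = 1.18e-06). Cebpe (0.30) and Cebpz (−0.17) did not pass the threshold.

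Short sequence words in 3′ UTRs were compared with the direction of change, and the sequences are shown here since many of the genes that fell most carry one word. Words of 7 bases were ranked by the difference in mean log2 fold change between genes with and without them, divided by its standard error. The difference was taken after a fit for UTR length, share of G and C, and level. A word had to be present in the longest annotated 3′ UTR of at least 50 of 9946 tested genes. AACTTGT ranked lowest of 16174 words, in each experiment taken alone as well as over both. The overlapping word ACTTGTA ranked next, with a slightly more negative difference (−0.303, against −0.295 for AACTTGT, over both). AACTTGT occurs in the Cebpb transcript in the coding sequence. The first match in the Cebpb coding sequence and in the 3′ UTR of 12 genes is given as 30 bases of the sense strand, GRCm38, with the match in capitals. Where 8 letters are in capitals the gene carries the longer form AACTTGTA. These 12 genes were picked from those named in this report and do not stand for all genes with the word. Of them 11 fell by more than 2-fold, and Cebpd, given last, rose. Among all tested genes with AACTTGTA, 22.3% were called lower by 2-fold or more and 15.8% were called higher by any amount. Among those with AACTTGT but not the longer form the shares were 12.7% and 22.5%.
Cebpb coding sequence, chr2:167689848-167689877, plus strand: gcaccctgcggAACTTGTtcaagcagctgc
Cdca7 3′ UTR, chr2:72486113-72486142, plus strand: aagagccccttAACTTGTttacacagaatc
Cse1l 3′ UTR, chr2:166945885-166945914, plus strand: ccaacctcttgAACTTGTcacaaactctta
Trip13 3′ UTR, chr13:73912454-73912483, minus strand: ttgtaatattaAACTTGTtttcagaattct
Mybl2 3′ UTR, chr2:163083812-163083841, plus strand: tgggttctgagAACTTGTtggagcgctgca
Arap2 3′ UTR, chr5:62604052-62604081, minus strand: tttggtttggaAACTTGTAaagttcaattg
E2f2 3′ UTR, chr4:136195496-136195525, plus strand: tagcagaattaAACTTGTAaataggcttgg
Ccne2 3′ UTR, chr4:11203333-11203362, plus strand: ctataaaagagAACTTGTttacaaaggtga
Hsd17b7 3′ UTR, chr1:169952091-169952120, minus strand: aatctccctacAACTTGTggtatgaaaact
Umps 3′ UTR, chr16:33956629-33956658, minus strand: tatcatggtctAACTTGTAatcactgcatt
Atp6v0d1 3′ UTR, chr8:105524628-105524657, minus strand: catgtctaagaAACTTGTAtgactttcatg
Xpo4 3′ UTR, chr14:57580201-57580230, minus strand: ctgtgtataatAACTTGTAttcagacagaa
Cebpd 3′ UTR, chr16:15889449-15889478, plus strand: acatgttatcaAACTTGTAggaaggtaaag
These are matches to letters and not sites shown to be bound. The siRNA sequence was not used here, and none of the 1738 mature mouse miRNAs in RefSeq has a seed complementary to AACTTGT.

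The shift was larger for AACTTGTA than for AACTTGT without it and smallest for the core alone, and it grew with the number of matches. AACTTGTA was chosen as the extension at the 3′ end with the most negative difference in these data. Genes with AACTTGTC, AACTTGTG or AACTTGTT had median log2 fold changes of −0.16, −0.16 and −0.27, so the step to the longer form depends on the letter added. The 448 genes with AACTTGTA had a median log2 fold change of −0.38, and 55.6% of them were called lower. The 1084 genes with AACTTGT but not the longer form had a median of −0.17, and the 2389 genes that hold only the core ACTTGT one of −0.036. In the 6025 genes without the core the median was 0.074, with 25.2% called lower and 35.7% called higher. AACTTGT present once went with a median of −0.18, and present 2 or more times, in 252 genes, with −0.43. Long UTRs hold more words of any kind, so the genes were also split into 3 equal classes by UTR length. Genes with AACTTGT had medians of −0.32, −0.26 and −0.18 in the shortest, middle and longest class, and genes without the core medians of 0.050, 0.073 and 0.16. Among genes called lower by 2-fold or more, 421 of 684 (61.5%) held the core, against 124 of 435 (28.5%) of those called higher by 2-fold or more and 39.4% of all. The word and its longer form were both picked on these fold changes, so these medians describe them and test nothing.

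**Figure D1:**
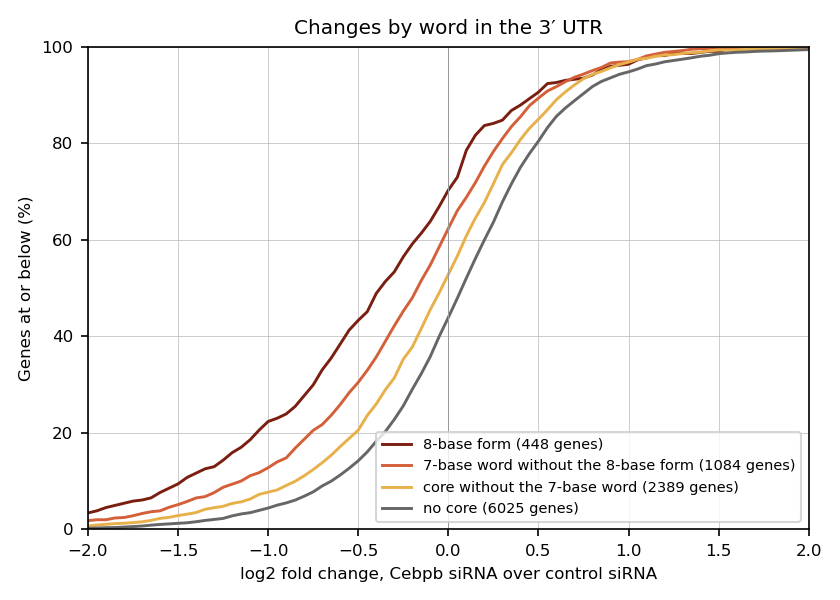
Cumulative share of genes (y axis, %) at or below each log2 fold change of Cebpb siRNA over control siRNA (x axis), for tested genes grouped by the longest form of the word in their 3′ UTR. The curve of the 448 genes with the 8-base form lies to the left (median −0.38) and that of the 6025 genes without the core to the right (median 0.074).

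The 12 largest decreases at a mean of 10 RPM or more belong to genes of several functions. Cdca7, a target of MYC and E2F needed for DNA methylation at heterochromatin, had 2.78, 2.05, 2.46 and 3.08 RPM with Cebpb siRNA, against 35.2, 28.9, 27.3 and 31.7 RPM with control siRNA. Cse1l, the export receptor that returns importin α to the cytoplasm, had 18.9, 29.7, 23.6 and 26.9 RPM, against 239, 224, 235 and 255 RPM. The log2 fold changes were −3.49 ± 0.14 and −3.19 ± 0.10, and neither gene overlapped between the groups. Mcm3, a subunit of the replicative helicase, had 25.3, 36.0, 38.3 and 29.7 RPM with Cebpb siRNA and 219, 219.6, 238 and 229 RPM with control siRNA (−2.73 ± 0.091, adjusted p = 7.63e-13). Trip13, an ATPase that takes apart the spindle checkpoint complex, fell by 2.63 on the log2 scale, Mybl2 (B-Myb), which drives late cell cycle genes, by 2.51, and the mitotic kinase Pbk by 2.45. E2f2 (−2.42) and Timeless (−2.39), a factor that steadies the replication fork, also stood among the 12, with Zfp367 (−2.40), a zinc finger gene. Prkar2a, which encodes a regulatory subunit of the cAMP-dependent protein kinase, had 23.3, 33.1, 24.4 and 22.9 RPM with Cebpb siRNA, against 157, 145, 144 and 146 RPM with control siRNA (−2.44 ± 0.082). Arap2 (−2.43) encodes a regulator of Arf GTPases. Rps26 (−2.54), a ribosomal protein gene, has near-identical copies in the genome, so its value is uncertain.

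The largest increases were spread over several functions. Tm7sf3, a gene for a membrane protein, had 22.3, 25.4, 25.4 and 27.9 RPM with Cebpb siRNA, against 1.47, 2.24, 2.58 and 3.39 RPM with control siRNA (3.53 ± 0.16, adjusted p = 1.32e-11). Mxd4, a partner of MAX that represses MYC targets, had 60.5, 59.7, 43.7 and 42.8 RPM, against 6.66, 5.22, 8.09 and 9.83 RPM (2.91 ± 0.15). In both genes the lowest Cebpb siRNA library was well above the highest control library. Car2, carbonic anhydrase II, which osteoclasts use to make acid, had 98.6, 118, 153 and 167 RPM with Cebpb siRNA and 16.2, 17.0, 21.9 and 22.4 RPM with control siRNA (2.87 ± 0.078). Bmp2, a growth factor of bone, rose by 2.39 on the log2 scale. Il1rn, the secreted antagonist of the interleukin-1 receptor, was among the most abundant of the 12: it had 354, 363, 669.6 and 667 RPM with Cebpb siRNA, against 81.0, 76.7, 146 and 139 RPM with control siRNA, a fold change of 4.93 (adjusted p = 1.39e-13). The interferon-induced Oas2 (2.88), the sterol carrier gene Osbp2 (2.57), the integrin ligand Edil3 (2.46), the unconventional myosin Myo6 (2.36), the surface protein Cd93 (2.33) and the junction protein Jup, or plakoglobin (2.30), made up the rest with Hist1h4i (2.54), a histone gene whose near-identical copies make its count uncertain. Of the 12 decreases, 4 held AACTTGT in the 3′ UTR without the longer form, 2 held AACTTGTA (Arap2 and E2f2) and 3 held only the core (Mcm3, Prkar2a and Zfp367); of the 12 increases Mxd4 and Cd93 held the core and none held AACTTGT.

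**Figure D2:**
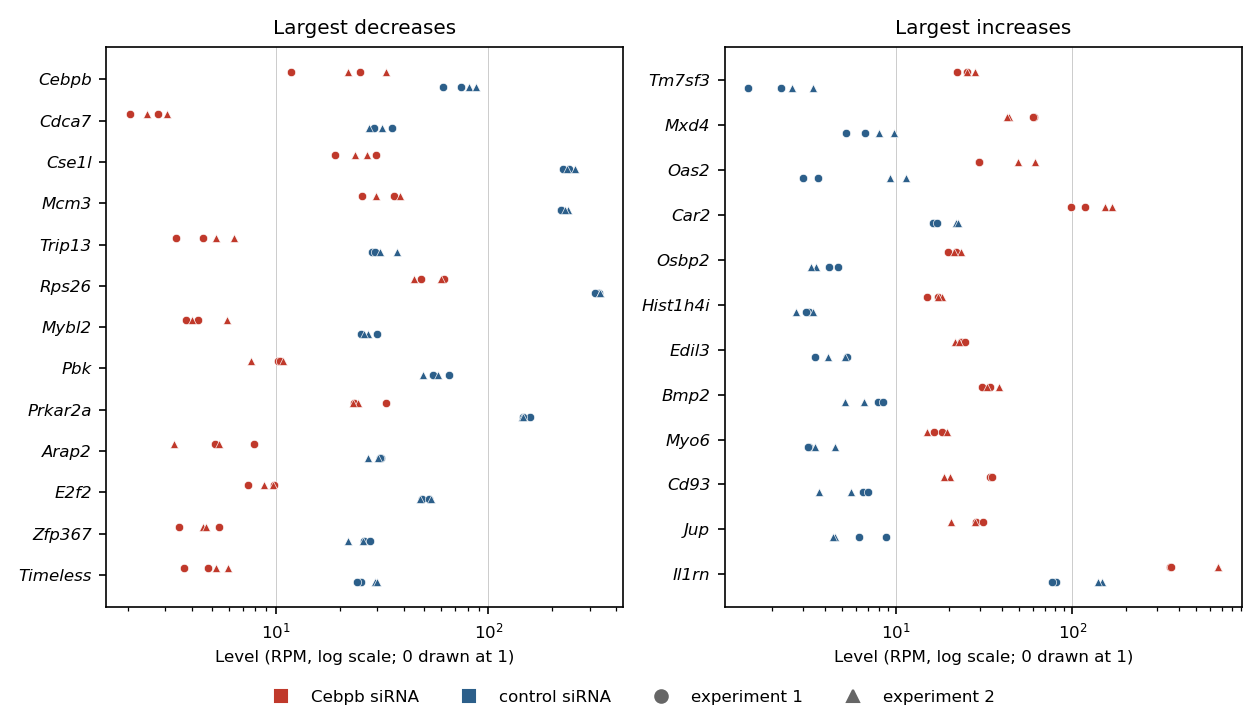
Level in each library (x axis, RPM on a log scale) of Cebpb and the 12 largest decreases (left) and the 12 largest increases (right) at a mean of 10 RPM or more. Each point is 1 library, with Cebpb siRNA above control siRNA for each gene, circles for experiment 1 and triangles for experiment 2; the groups do not overlap for Mcm3 (at most 38.3 against at least 219 RPM) or Tm7sf3 (at least 22.3 against at most 3.39 RPM).

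Genes that license replication origins fell. Before S phase the origin recognition complex, Cdc6 and Cdt1 load the MCM helicase on DNA, and geminin (Gmnn) restrains Cdt1 afterwards. Of 15 tested genes of this group 13 were lower and 1 higher, with a median log2 fold change of −1.38. All 6 subunits of the helicase were lower. Besides Mcm3, the log2 fold changes were −1.89 ± 0.069 for Mcm6, −1.81 ± 0.12 for Mcm7, −1.43 ± 0.12 for Mcm2, −1.38 ± 0.10 for Mcm4 and −1.23 ± 0.064 for Mcm5. Cdc6 had 11.8, 12.7, 15.2 and 11.6 RPM with Cebpb siRNA and 48.8, 49.9, 58.8 and 56.5 RPM with control siRNA, which do not overlap (−1.97 ± 0.086). Subunits of the origin recognition complex differed among themselves: Orc1 (−1.73), Orc6 (−0.84), Orc3 (−0.43) and Orc2 (−0.41) were lower, Orc4 was higher (0.34) and Orc5 (0.0059) did not pass.

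At the replication fork, the 32 tested genes were each lower with Cebpb siRNA, with a median of −1.27, and for 31 of them the groups did not overlap. Mcm10, which joins the helicase to the polymerases, had 10.7, 11.8, 15.5 and 13.1 RPM, against 52.4, 50.9, 62.4 and 66.3 RPM (−2.10 ± 0.079). The GINS subunits were lower by unequal amounts, Gins2 by 1.92, Gins1 by 1.62, Gins3 by 1.27 and Gins4 by 0.45 on the log2 scale. Among the polymerases, Pola1 (−1.38), Pold1 (−1.22) and Pole (−0.95), which encode the catalytic subunits of α, δ and ε, fell less than the chromatin assembly gene Chaf1b (−1.92) in the point estimates, and a difference between genes was not tested. Pcna, the sliding clamp, had 38.6, 43.1, 48.2 and 54.0 RPM with Cebpb siRNA, against 78.5, 80.9, 94.0 and 97.0 RPM with control siRNA (−0.84 ± 0.071). The smallest decreases were those of the clamp loader Rfc1 (−0.33) and the polymerase δ subunit Pold3 (−0.42).

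Enzymes that make nucleotides fell with them: 19 of 20 were lower and none higher (median −1.004). Rrm2, the regulated subunit of ribonucleotide reductase, had 9.79, 14.0, 13.4 and 15.4 RPM with Cebpb siRNA and 55.4, 49.2, 56.3 and 57.7 RPM with control siRNA (−1.98 ± 0.10). Umps, which completes pyrimidine synthesis and carries AACTTGTA in its 3′ UTR, fell by 1.78, thymidine kinase Tk1 by 1.502, Dut, which clears dUTP, by 1.36, and thymidylate synthase Tyms by 1.17 on the log2 scale. The purine enzymes Atic (−1.29), Adsl (−1.01), Gart (−1.001) and Paics (−0.99) were lower as well. Impdh2, of guanine nucleotide synthesis, was the 1 gene that did not pass (−0.19). Recombination and mismatch repair genes showed the same direction in each of 22 tested members (median −1.39), with Fanci (−2.53 ± 0.19), Bard1 (−2.12 ± 0.11), Exo1 (−2.09 ± 0.10) and the checkpoint kinase Chek1 (−2.01 ± 0.077) lowest and Fancm (−0.55) least changed.

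Mitotic genes were lower in 39 of 40 cases (median −1.17), the exception being the checkpoint gene Bub3 (−0.0013). Wee1, the kinase that holds back Cdk1, fell by 2.18 and Cdk1 itself by 1.63 on the log2 scale. Cdk1 had 79.5, 84.6, 70.6 and 80.9 RPM with Cebpb siRNA, against 304, 252, 229.7 and 262 RPM with control siRNA. Top2a, topoisomerase IIα, had 241, 283, 294 and 223 RPM, against 867, 891, 739 and 736 RPM (−1.55 ± 0.082). Cyclin B1 (Ccnb1, −0.68 ± 0.067) and cyclin B2 (Ccnb2, −0.90 ± 0.072) fell less than cyclin A2 (Ccna2, −1.46 ± 0.081) in the point estimates, which were not tested against each other. The kinetochore genes Ndc80 (−1.61), Spc24 (−1.35), Spc25 (−1.23) and Nuf2 (−1.17), which form 1 complex, were all lower, as were Aurkb (−1.26), Incenp (−1.34), Birc5 (−1.20) and Cdca8 (−1.16) of the chromosomal passenger complex.

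Regulators of entry into the cycle moved in both directions. Of 10 G1 cyclins and kinases, 6 were lower and 2 higher. Cyclin E2, Ccne2, had 2.63, 2.60, 3.26 and 3.18 RPM with Cebpb siRNA and 14.0, 12.5, 17.1 and 19.1 RPM with control siRNA (−2.32 ± 0.12), and Cdc25a, a phosphatase that activates cyclin-dependent kinases, fell by 1.66. Cyclin D2, Ccnd2, went the other way, with 199, 214, 184 and 157 RPM, against 67.2, 66.9, 55.4 and 53.2 RPM (1.73 ± 0.065). Cyclin D1, the most abundant of the group, had 1058, 1179.9, 966 and 979 RPM with Cebpb siRNA and 1249, 1109, 1024 and 1081 RPM with control siRNA, an estimate of −0.00064 ± 0.059 with a 95% interval of −0.13 to 0.12. Of the E2F, Rb and B-Myb factors 11 of 16 were lower, E2f7 (−2.03) and E2f8 (−1.67), which repress, as well as E2f1 (−1.12) and E2f3 (−0.61), which activate. Rb1 (0.55), its relative Rbl2 (0.43), E2f5 (0.55) and Tfdp2 (0.27) were the 4 that rose, while the relative Rbl1 (−1.14) fell. The call of Tfdp2 was lost without replicate 2 of experiment 2 (0.23) with Cebpb siRNA, or replicate 1 of experiment 1 (0.27), replicate 1 of experiment 2 (0.23) or replicate 2 of experiment 2 (0.26) with control siRNA.

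Of 12 CDK inhibitors and antiproliferative genes, 6 rose and 3 fell. Btg2 had 58.2, 54.6, 52.0 and 60.7 RPM with Cebpb siRNA, against 15.7, 15.02, 13.5 and 14.3 RPM with control siRNA (2.04 ± 0.087, adjusted p = 1.02e-11), and its relatives Tob1 (1.74 ± 0.11), Tob2 (1.47 ± 0.061) and Btg1 (1.38 ± 0.12), whose products recruit deadenylases to mRNA, rose too. The Cdk inhibitor p21, Cdkn1a, had 348, 349.9, 318 and 266 RPM, against 168, 162, 176 and 188 RPM (0.97 ± 0.074). Gadd45a (−0.89), Gadd45b (−0.66) and Cdkn2c (−0.51) were lower. The call of Cdkn2c was lost without replicate 1 of experiment 1 (−0.43), replicate 2 of experiment 1 (−0.41) or replicate 1 of experiment 2 (−0.50) with Cebpb siRNA, or replicate 1 of experiment 1 (−0.34) or replicate 2 of experiment 1 (−0.51) with control siRNA. In a list of 16 tested p53 targets, Trp53 among them, 13 were higher and none lower (median 0.58). Gadd45a, which p53 can also induce and which fell, was not in this list, so the count depends on the choice of members. Ccng1, cyclin G1, had 159.6, 167, 127 and 129 RPM with Cebpb siRNA, against 45.8, 42.9, 41.6 and 46.3 RPM with control siRNA (1.81 ± 0.070). Zmat3 (1.63 ± 0.076), the death receptor Fas (1.58 ± 0.19), Phlda3 (1.13 ± 0.12) and the p53 ligase Mdm2 (0.62 ± 0.074) rose. In the MYC, MAX and MXD network, Mxd4 and Mxd1 (0.89 ± 0.12) rose and Mxi1 fell (−0.68 ± 0.12), while Myc was listed at 0 in all 8 libraries.

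Some lists of the cell cycle were also low among their genes without the core ACTTGT, and others were not. Without it, 25 of 25 replication fork genes were lower (median −1.22, against −1.38 in the 7 genes with it). The same held for 27 of 27 mitotic genes (−1.02, against −1.38 with it) and for 14 of 14 recombination and repair genes (−1.15, against −1.95). In the G1 group the 4 genes without the core, Ccnd1, Ccnd3, Ccne1 and Cdk2, had a median of −0.052, with Ccne1 lower (−1.15) and Ccnd3 higher (0.34), against a median of −1.52 in the 6 with it. Licensing genes without the core were lower in 9 of 10 cases (median −1.15, against −1.89 with it). Nucleotide synthesis genes without it were lower in 10 of 11 cases (−0.96, against −1.17). Among E2F, Rb and B-Myb factors without the core 4 of 7 were lower and 3 higher, and the median was −0.63, against −0.61 with it. The CDK inhibitors and antiproliferative genes without it had a median of 1.01 and the p53 targets one of 0.43. These splits were not tested against each other.

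Promoters were searched for letters of the E2F form. In RefSeq promoters of GRCm38.p6, from 250 bases before to 50 after the start of a gene, TTTNGCGC on either strand was found in 6.73% of 550 genes called lower by 2-fold or more, in 1.64% of 366 called higher by 2-fold or more, in 2.79% of 8235 tested genes with a promoter and in 1.38% of all 27025 promoters. Among licensing genes 6 of 13 held it, among replication fork genes 4 of 25 and among mitotic genes 1 of 31. It was in none of 19 promoters of nucleotide synthesis and 16 of recombination and repair genes. Those of 6 licensing genes and of E2f2 are shown on the strand of the gene, with the match, which may read on the other strand, in capitals.
Mcm3 promoter, chr1:20820263-20820292, minus strand: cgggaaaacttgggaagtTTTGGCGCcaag
Mcm5 promoter, chr8:75109345-75109374, plus strand: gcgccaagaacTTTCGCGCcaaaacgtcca
Mcm6 promoter, chr1:128359797-128359826, minus strand: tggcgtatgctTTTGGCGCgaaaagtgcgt
Mcm7 promoter, chr5:138171849-138171878, minus strand: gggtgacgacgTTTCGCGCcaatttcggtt
Orc1 promoter, chr4:108579416-108579445, plus strand: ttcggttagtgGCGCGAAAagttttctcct
Cdt1 promoter, chr8:122568035-122568064, plus strand: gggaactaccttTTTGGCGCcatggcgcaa
E2f2 promoter, chr4:136172294-136172323, plus strand: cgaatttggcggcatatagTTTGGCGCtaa
The letters TTGCNNAA, a form of the C/EBP element, were in 5.82% of promoters of genes called lower by 2-fold or more, 11.2% of those called higher by 2-fold or more and 8.28% of all tested (10.8% of all promoters). CCAAT, the letters bound by NF-Y, was in 47.3%, 36.9% and 39.3% of the same groups. A match is a run of letters and not a bound site.

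Among genes of transport between nucleus and cytoplasm, 17 of 26 genes were lower and 2 higher (median −0.45). Besides Cse1l, Xpo4 had 7.58, 9.69, 10.2 and 9.13 RPM with Cebpb siRNA, against 28.4, 28.1, 30.8 and 33.0 RPM with control siRNA (−1.63 ± 0.093), and it carries AACTTGTA as printed above. Rcc1, the exchange factor of Ran (−1.47 ± 0.090), the importins α Kpna6 (−1.21 ± 0.10) and Kpna2 (−0.80 ± 0.14) and the main exportin Xpo1 (−0.70 ± 0.066) fell. The 2 that rose were Ipo4 (0.31) and Tnpo3 (0.16), import receptors. The call of Ipo4 was lost without replicate 1 of experiment 1 (0.26) with Cebpb siRNA, or replicate 2 of experiment 1 (0.27) or replicate 2 of experiment 2 (0.30) with control siRNA. That of Tnpo3 was lost without replicate 1 of experiment 1 (0.17), replicate 2 of experiment 1 (0.16) or replicate 1 of experiment 2 (0.12) with Cebpb siRNA, or replicate 1 of experiment 1 (0.18), replicate 2 of experiment 1 (0.15) or replicate 2 of experiment 2 (0.15) with control siRNA.

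Genes of amino acid and one-carbon metabolism were mostly lower. Of 11 tested enzymes of serine, glycine and folate-linked one-carbon metabolism, 10 were lower and none higher (median −0.94). Shmt2, the mitochondrial serine hydroxymethyltransferase, had 19.6, 21.3, 20.7 and 20.1 RPM with Cebpb siRNA, against 107, 91.9, 93.0 and 93.4 RPM with control siRNA (−2.14 ± 0.073). Cth (−1.94 ± 0.083), of the transsulfuration pathway, Mthfd1l (−1.37 ± 0.069), Psat1 (−1.31 ± 0.062) and Mthfd2 (−0.94 ± 0.057) followed. Atf4, the factor that drives many of these genes under amino acid stress, had 164, 188, 211 and 160.3 RPM, against 424, 424, 457 and 466 RPM (−1.21 ± 0.071). Of 17 genes made up of Atf4, related factors and targets outside one-carbon metabolism, 13 fell, including the pseudokinase Trib3 (−1.68 ± 0.080), Chac1 (−1.39 ± 0.13), which degrades glutathione, and the amino acid transporters Slc7a1 (−1.49 ± 0.068) and Slc1a5 (−1.15 ± 0.069). Ddit4, an inhibitor of mTORC1, rose (1.01 ± 0.11). Cytosolic tRNA synthetases were lower in 14 of 20 cases, none by 2-fold, led by Vars (−0.82) and Lars (−0.71), and Qars alone was higher (0.46). Ribosome biogenesis genes were lower in 16 of 28 (median −0.26), with the nucleolar GTPase Gnl3 (−1.11) and the box C/D protein Nop56 (−1.004) lowest and the polymerase I subunit Polr1c (0.26) the 1 that rose, a call lost without replicate 1 of experiment 1 with Cebpb siRNA (0.20).

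Energy and lipid genes showed no common direction. Glycolysis had 5 genes higher and 6 lower of 18, the nuclear-encoded respiratory chain 10 and 5 of 28, and lysosomal genes 9 and 5 of 27. Hexokinase 2 (Hk2, −0.63 ± 0.075) fell and the glucose transporter Slc2a1 (0.45 ± 0.070) rose. Within the lysosomal proton pump, Atp6v0d1 had 7.86, 8.59, 6.95 and 9.23 RPM with Cebpb siRNA, against 32.7, 26.4, 28.8 and 28.4 RPM with control siRNA (−1.74 ± 0.11), and Atp6v1a fell by 0.997; both carry AACTTGTA. Of the sterol pathway 9 of 20 genes were lower and 2 higher. Hsd17b7 (−2.15 ± 0.10), which holds AACTTGT, and Pmvk (−1.15 ± 0.10) stood lowest. Lpl, lipoprotein lipase, fell to 346, 369, 487 and 441 RPM with Cebpb siRNA, against 905, 864, 1226 and 1213 RPM with control siRNA (−1.26 ± 0.056). Ferritin heavy chain, Fth1, was among the most abundant transcripts that rose, with 4094, 3992, 4072 and 4624 RPM, against 2110.4, 2029, 2131 and 2166 RPM (1.08 ± 0.066). Of 19 NRF2 genes 4 rose and 7 fell, Me1 (−0.76) among those that fell. Of 9 mitochondrially encoded transcripts 5 rose, the ribosomal RNAs mt-Rnr1 (0.64) and mt-Rnr2 (0.60) most, and mt-Nd1 (−0.11) and mt-Cytb (0.13) did not pass.

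Most interferon-stimulated genes were higher, and the size depended on the experiment for some of them. OAS enzymes make short adenylate chains on sensing double-stranded RNA, as part of antiviral defence. Of the list of that family 7 of 9 members rose and 2 fell, Oas1c (−0.45 ± 0.18) among them. The call of Oas1c was lost without replicate 1 of experiment 1 (−0.43) or replicate 2 of experiment 2 (−0.31) with Cebpb siRNA, or replicate 1 of experiment 1 (−0.47), replicate 1 of experiment 2 (−0.43) or replicate 2 of experiment 2 (−0.36) with control siRNA. Oas2 had 29.5, 29.6, 49.4 and 61.6 RPM with Cebpb siRNA, against 2.99, 3.64, 9.28 and 11.4 RPM with control siRNA, without overlap. Oasl2 had 14.8, 13.2, 41.2 and 32.9 RPM, against 2.83, 2.59, 12.5 and 14.8 RPM, and here the groups overlapped (2.00 ± 0.15, adjusted p = 6.98e-09), with experiment 2 above experiment 1 in both. Of 41 other interferon-stimulated genes 38 rose and 1, Parp12 (−0.39), fell, with a median of 1.03. The groups did not overlap for 13 of the 41 (31.7%), where the share over all tested genes was 47.6%. Overlap was counted over both experiments together, so a gene with unlike levels in the experiments can overlap although its groups are apart within each. Without a term for the experiment in the fit 19 of the list passed as higher.

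Ifi44 had 119, 108, 259 and 266 RPM with Cebpb siRNA, against 17.7, 19.6, 92.1 and 108 RPM with control siRNA (2.09 ± 0.17). Isg15, the ubiquitin-like modifier, had 24.6, 23.5, 67.0 and 59.8 RPM, against 5.93, 4.96, 23.8 and 26.0 RPM (1.84 ± 0.12). Both were lower in experiment 1 than in experiment 2, with either siRNA. The guanylate-binding proteins Gbp2 (1.99 ± 0.23) and Gbp7 (1.88 ± 0.15), Ifit1 (1.59 ± 0.17) and the RNA sensors Ddx58 (RIG-I, 1.34 ± 0.11) and Ifih1 (MDA5, 1.25 ± 0.11) rose, while Rsad2 (0.13 ± 0.16) and the chemokine Cxcl10 (−0.24 ± 0.14) did not pass. The median of the list was 1.15 in experiment 1 and 0.90 in experiment 2. Across all genes a difference of the siRNA effect between the experiments was called for 4 genes (0.0371% of those tested, limma interaction term), Ifi44, Irf7, Rtp4 and Cmpk2, and each of the 4 was raised more in experiment 1. For Ifi44 the log2 fold change was 2.66 and 1.53 in experiments 1 and 2, for Rtp4 2.54 and 1.23, for Irf7, the factor that amplifies interferon output, 1.67 and 0.41, and for Cmpk2 1.82 and 0.45. This count rested on single libraries: it was 275 without replicate 1 of experiment 2 with Cebpb siRNA, 15 without replicate 2, and 0 without any one of the other 6.

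**Figure D3:**
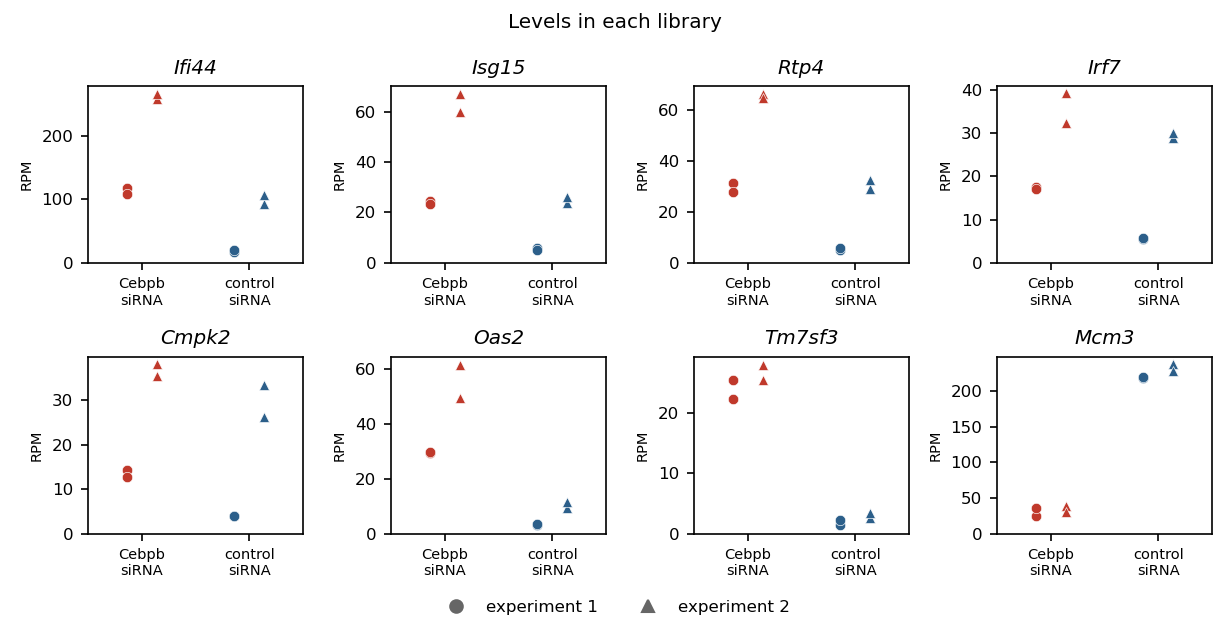
Level in each library (y axis, RPM, from 0) for 8 genes, with Cebpb siRNA left of control siRNA, circles for experiment 1 and triangles for experiment 2. Ifi44, Isg15, Rtp4, Irf7 and Cmpk2 differ between experiments within the control group. Ifi44 and Isg15, like Mcm3 and Tm7sf3, keep the siRNA groups apart within each experiment.

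Signalling genes of the interferon response were less uniform, with 9 of 16 higher and 4 lower. Irf5, a factor of inflammatory macrophages, had 180.2, 198, 172 and 222 RPM with Cebpb siRNA, against 116, 93.8, 126 and 125 RPM with control siRNA (0.84 ± 0.085), and Irf1 (0.56 ± 0.073), Ifnar2 (0.58 ± 0.068) and Ifngr1 (0.69 ± 0.10) rose. The kinase Jak1 (−0.83 ± 0.063), Irf8 (−0.69 ± 0.075), a lineage factor of macrophages, and Ifngr2 (−0.65 ± 0.078) fell, with Irf9 (−0.28 ± 0.089), whose call was lost without replicate 1 of experiment 2 (−0.23) with control siRNA. Ifnb1, the gene of interferon β, was listed at 0 in all 8 libraries. Of 18 sensors of nucleic acids 13 rose, Tlr3 (1.499 ± 0.10) and Tlr7 (1.08 ± 0.075) among them, and 3 fell, Mb21d1 (cGAS, −0.36) and Tlr8 (−0.77) among them. The element GAAANNGAA, read on both strands, was in the promoter of 21 of 33 of the interferon-stimulated genes, in 13.4% of genes called higher by 2-fold or more, in 7.09% of those called lower by 2-fold or more, in 7.40% of all tested and in 8.57% of all promoters. The element is shown in capitals for genes that rose and, last, for Cxcl10, which did not pass.
Ifi44 promoter, chr3:151749894-151749923, minus strand: aaagtttctcTTCATTTTCtacaggcttgg
Isg15 promoter, chr4:156200877-156200906, minus strand: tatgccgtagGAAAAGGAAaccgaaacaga
Gbp2 promoter, chr3:142620595-142620624, plus strand: ctcttttagtTTCACTTTCactgtcttaag
Oas1a promoter, chr5:120907526-120907555, minus strand: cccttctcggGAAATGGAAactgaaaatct
Ddx58 promoter, chr4:40239803-40239832, minus strand: ctgaggcagtTTCGATTTCctatggccagc
Cxcl10 promoter, chr5:92349083-92349112, minus strand: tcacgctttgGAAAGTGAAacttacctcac

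**Figure D4:**
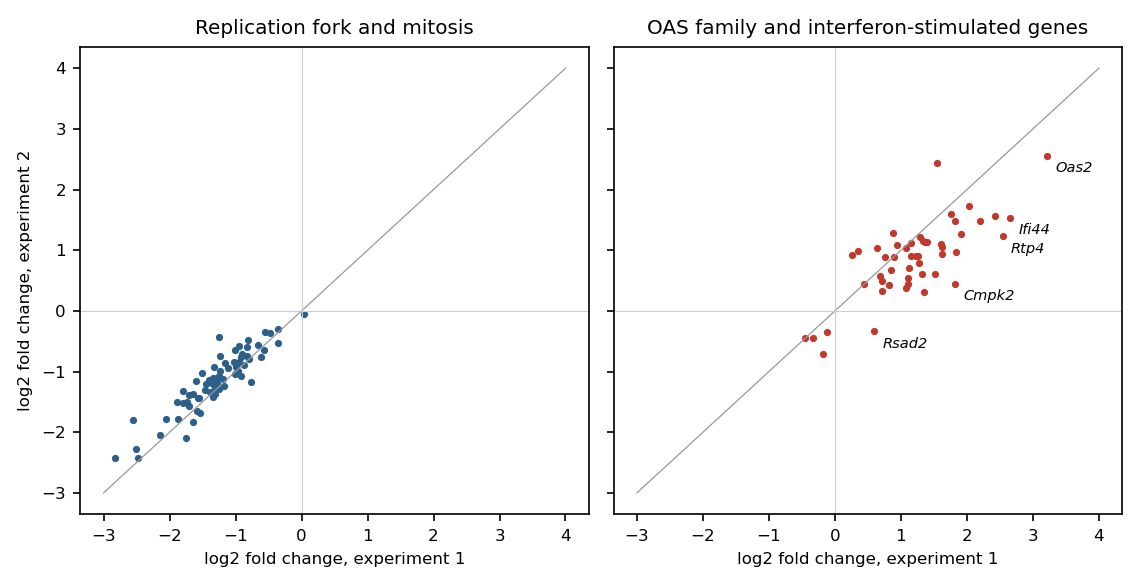
Log2 fold change of Cebpb siRNA over control siRNA in experiment 1 (x axis) and experiment 2 (y axis); each point is a tested gene and the grey line marks equal values. Replication fork and mitosis genes (left) lie near the line on the negative side, while interferon-stimulated and OAS genes (right) lie mostly below it, with Rtp4 at 2.54 and 1.23 and Oas2 at 3.21 and 2.56.

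Antigen presentation was higher in part. Of 18 class I genes 11 rose and 4 fell (median 0.44). B2m, the invariant light chain, had 433, 458, 549 and 689.9 RPM with Cebpb siRNA, against 278, 270.1, 343 and 378 RPM with control siRNA (0.83 ± 0.076). The non-classical H2-T23 rose by 1.87 ± 0.23, Tapbp (tapasin) by 1.05 ± 0.073 and H2-K1 by 0.50 ± 0.11, and the chaperones Canx (−0.34), Calr (−0.30) and Pdia3 (−0.30) were among those that fell; class I genes share sequence, so reads may be split among them. On the class II side Cd74, the invariant chain, had 53.8, 65.0, 46.4 and 47.7 RPM, against 19.1, 20.6, 18.9 and 16.3 RPM (1.59 ± 0.082), and H2-DMa (1.10 ± 0.16) rose. Of 11 class II genes 6 rose and none fell, while H2-Aa, H2-Ab1, H2-Eb1 and Ciita were not above the limit in at least 4 libraries. Of 12 costimulatory and checkpoint genes 10 rose and none fell. Cd40 had 21.2, 20.7, 25.7 and 25.2 RPM with Cebpb siRNA, against 6.98, 7.24, 8.44 and 9.603 RPM with control siRNA (1.62 ± 0.094), and Havcr2 (TIM-3, 1.74 ± 0.14) and Cd86 (1.11 ± 0.10) also rose.

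Rel and NF-κB genes were mostly higher: 16 of 24 rose and 3 fell (median 0.45). Traf1 had 61.2, 62.6, 85.2 and 83.8 RPM with Cebpb siRNA, against 20.4, 20.1, 20.4 and 21.9 RPM with control siRNA (1.90 ± 0.089). Among subunits, Relb (1.24 ± 0.12), Rel (1.08 ± 0.078), Nfkb2 (0.66 ± 0.087), Nfkb1 (0.46 ± 0.076) and Rela (0.28 ± 0.066) rose, and among inhibitors and atypical IκB proteins Bcl3 (1.46 ± 0.15), Nfkbie (1.18 ± 0.11), Nfkbiz (1.09 ± 0.11) and Nfkbia (0.61 ± 0.067). The 3 that fell belong to IκB kinases: Ikbkg (−0.76), Ikbke (−0.62) and Chuk (−0.48). Toll-like receptors and adaptors were divided, with 11 higher and 9 lower of 22: Tlr4 (0.65), its co-receptor Cd14 (0.75) and Myd88 (0.75) rose, and Tlr13 (−1.39) and the adaptor Ticam2 (−1.17) fell.

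Chemokine genes changed in both directions, with 7 of 13 higher and 4 lower. Ccl3, which attracts cells through Ccr1 and related receptors, had 29.4, 39.7, 41.9 and 40.3 RPM with Cebpb siRNA, against 190.0, 201, 189 and 219.6 RPM with control siRNA (−2.32 ± 0.086, adjusted p = 2.23e-12). Ccl4, its neighbour on chromosome 11, had 289.8, 320.0, 292 and 309.6 RPM, against 685, 642, 533 and 609.8 RPM (−0.93 ± 0.071), and Ccl6 and Pf4 fell by 0.50 and 0.19. The call of Pf4 was lost without replicate 1 of experiment 1 (−0.16) or replicate 2 of experiment 1 (−0.15) with Cebpb siRNA, or replicate 1 of experiment 1 (−0.18) or replicate 2 of experiment 1 (−0.14) with control siRNA. Ligands of Ccr2 moved up: Ccl7 had 16.05, 17.3, 32.5 and 54.7 RPM with Cebpb siRNA, against 5.56, 5.88, 16.3 and 15.1 RPM with control siRNA (1.58 ± 0.13), and Ccl12 rose by 1.51 ± 0.16 and Ccl2 by 0.75 ± 0.12. For Ccl7 the libraries of experiment 2 stood above those of experiment 1 in both groups. Ccl9 had 471, 539, 730.3 and 723 RPM, against 205, 219, 317 and 343 RPM (1.29 ± 0.060), and the scavenger chemokine Cxcl16 rose by 1.28 ± 0.063. Of 8 chemokine receptors 4 rose and 2 fell. Ccr2 itself rose (1.68 ± 0.16), with Cxcr4 (1.42 ± 0.12), and Cx3cr1, the fractalkine receptor, fell to 23.5, 28.7, 23.2 and 19.1 RPM, against 134, 133, 113 and 121 RPM (−2.33 ± 0.074).

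Cytokine and receptor families followed. In the interleukin-1 group 8 of 10 rose, among them Il18 (1.05 ± 0.11), Casp1 (0.88 ± 0.066) and Nlrp3 (0.91 ± 0.092), of the inflammasome pathway, whereas its adaptor Pycard (−0.88 ± 0.084) and the receptor chain Il1rap (−1.01 ± 0.17) fell. Il1b had 2.16, 1.80, 2.07 and 2.02 RPM with Cebpb siRNA and was listed at 0 in the 4 control siRNA libraries, so it entered the test only through the group in which it is high. With genes above the limit in all 8 libraries, the interleukin-1 group had 5 higher and 1 lower. Of 14 genes of the TNF superfamily and its receptors 8 rose and 1 fell. Tnfrsf9 (4-1BB, 2.05 ± 0.14) and Tnfsf12 (1.499 ± 0.19) rose with Cd40 and Fas, Tnfrsf26 fell (−1.32 ± 0.12), and Tnf itself had 45.7, 52.5, 49.3 and 49.8 RPM, against 47.1, 53.9, 46.6 and 49.7 RPM, which did not pass (0.094 ± 0.075). C-type lectins were higher in 12 of 13 cases (median 0.98). Clec4a2, an inhibitory receptor, had 12.8, 11.4, 17.9 and 19.1 RPM with Cebpb siRNA, against 3.46, 2.59, 5.76 and 5.18 RPM with control siRNA (1.98 ± 0.13), Clec12a rose by 1.82 ± 0.10 and Clec5a by 1.59 ± 0.076, and Clec7a, the β-glucan receptor Dectin-1, was the 1 that fell (−0.55 ± 0.11). Among receptors that signal through ITAM adaptors, Trem1 rose (2.12 ± 0.14) and Trem2 fell (−0.56 ± 0.072); Fcgr1 had 7.39, 6.19, 8.94 and 6.58 RPM, against 15.2, 14.4, 26.3 and 27.2 RPM (−1.37 ± 0.13). Of 9 scavenger receptors 5 fell and 2 rose. Marco, which binds bacteria, fell by 1.76 and Scarb1 by 0.73.

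**Figure D5:**
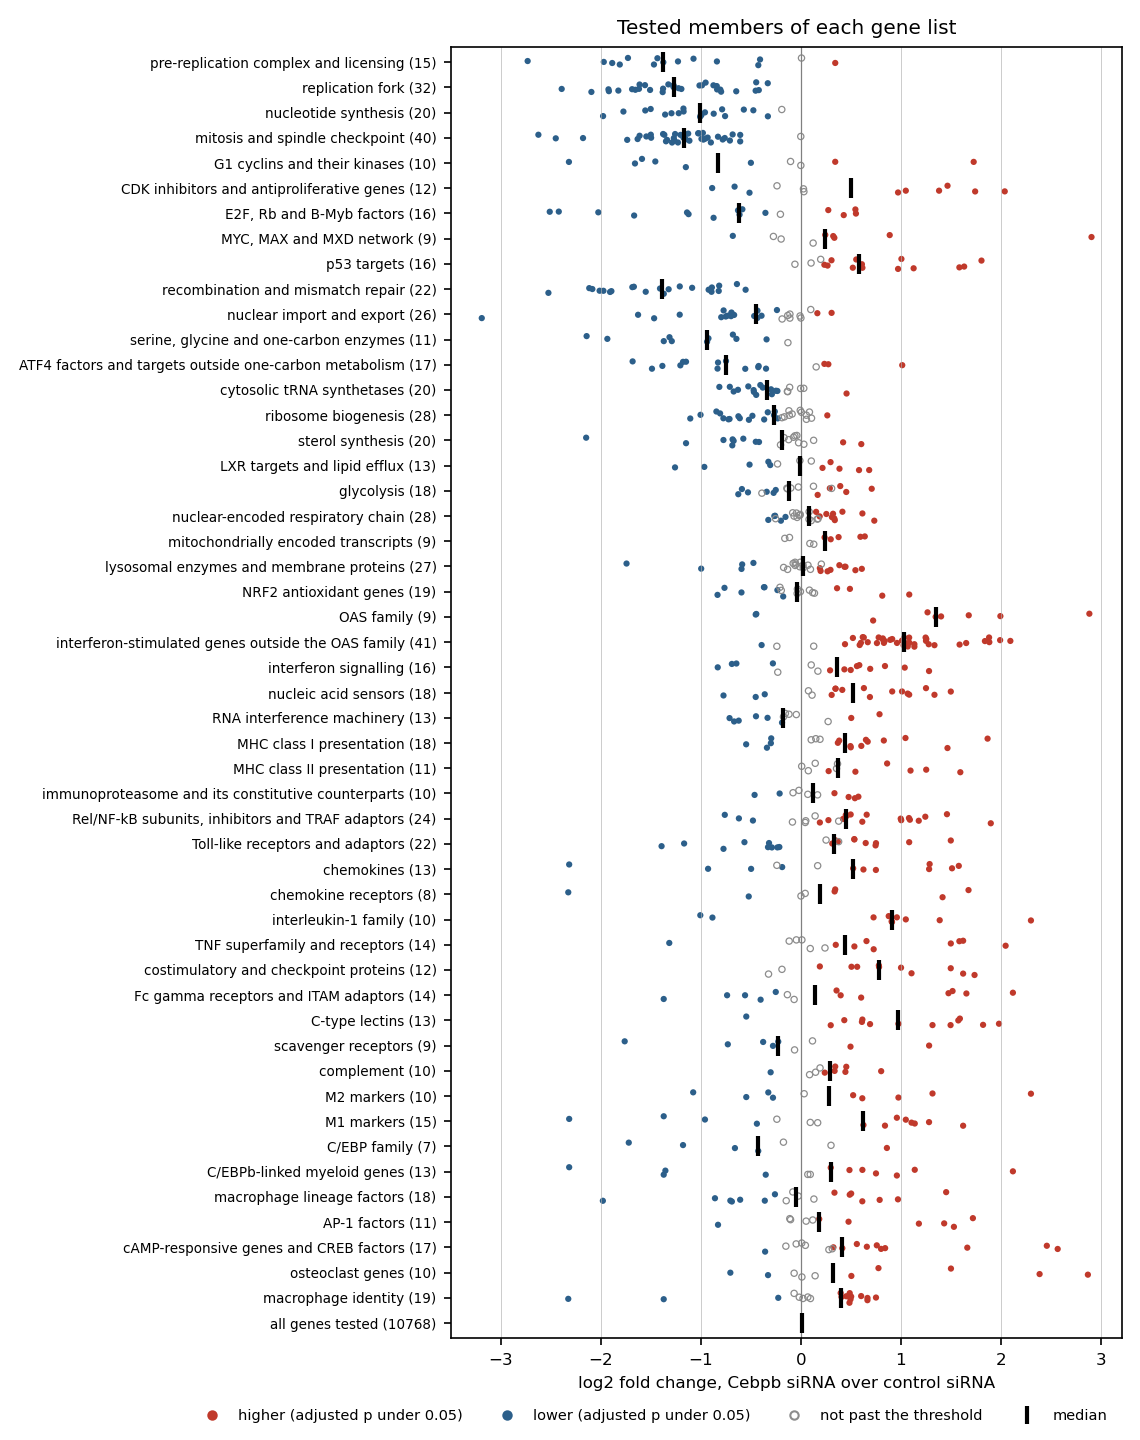
Log2 fold change of Cebpb siRNA over control siRNA (x axis) for each tested member of the gene lists (rows, with the number of tested members), filled where the adjusted p was under 0.05 and open otherwise, with a bar at the median. Rows of replication and mitosis lie on the negative side (medians of −1.27 for the replication fork and −1.17 for mitosis), and the interferon-stimulated row on the positive side (1.03).

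Markers of macrophage activation did not follow 1 pattern. Of 24 M2 markers 10 were above the limit in enough libraries to be tested; Arg1, Il10, Vegfa, Chil3 and Mrc1 were each listed at 0 in all 8. Il1rn, Mgl2 (1.32 ± 0.074), Clec10a (0.98 ± 0.077) and Klf4 (0.61 ± 0.13) rose, and so did Ccl22, which had 1.13, 1.30, 1.55 and 2.12 RPM with Cebpb siRNA and was listed at 0 in the 4 control libraries. Ccl22 entered the test only through the group in which it is high, and its call was lost in limma without replicate 2 of experiment 2 (adjusted p = 0.0950) with Cebpb siRNA, or replicate 1 of experiment 2 (adjusted p = 0.0857) or replicate 2 of experiment 2 (adjusted p = 0.0877) with control siRNA. Ppargc1b (−1.08 ± 0.11), Clec7a, the interleukin-4 receptor Il4ra (−0.33 ± 0.094) and Msr1 (−0.28 ± 0.062) fell, and Tgfb1 (0.033) did not pass. Of 15 tested M1 markers 8 rose and 4 fell. Among those that rose were Il1b, Cd86, Cd40, Irf5 and Il18, described above, Cxcl2 (0.63 ± 0.15) and Ptgs2, and those that fell were Ccl3, Fcgr1, Acod1 and Gpr84 (−0.44 ± 0.073), while Ccl5 (0.17 ± 0.11), Cxcl10 and Tnf did not pass. Ptgs2, prostaglandin synthase 2, had 26.3, 29.0, 34.7 and 39.1 RPM with Cebpb siRNA, against 13.3, 12.5, 17.3 and 19.8 RPM with control siRNA (1.14 ± 0.085), and Acod1, which makes itaconate, had 3.86, 3.79, 11.9 and 9.55 RPM, against 8.03, 8.65, 19.2 and 23.2 RPM (−0.96 ± 0.12). Il6 and Nos2 were listed at 0 in all 8 libraries.

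Factors of the macrophage lineage and immediate early factors also moved in both directions. Of 18 lineage factors 7 rose and 7 fell. Id3 (1.45 ± 0.13), Id1 (0.97 ± 0.12) and Id2 (0.79 ± 0.072), which keep basic helix-loop-helix factors off DNA, and Spi1 (PU.1, 0.50 ± 0.075) rose. Mef2c (−0.86 ± 0.065), Mitf (−0.71 ± 0.094) and Batf3 fell, Batf3 to 1.55, 1.30, 1.15 and 0 RPM with Cebpb siRNA, against 4.88, 4.13, 5.76 and 6.30 RPM with control siRNA. Of 11 AP-1 factors 6 rose and 1 fell. Fos had 21.4, 24.4, 31.5 and 33.9 RPM with Cebpb siRNA, against 8.396, 6.59, 11.7 and 9.47 RPM with control siRNA (1.72 ± 0.11), and Junb (1.18 ± 0.073) and Maff (1.53 ± 0.25) rose, while Jun (−0.10) did not pass and Atf3 fell (−0.83 ± 0.075). Batf2, which interferon induces, rose by 1.43 ± 0.18. Of 17 cAMP-linked genes 10 rose and 1 fell. Odc1, ornithine decarboxylase, rose to 69.2, 70.5, 128 and 106 RPM, against 25.8, 30.6, 34.4 and 31.5 RPM (1.66 ± 0.11), with Creb1 (0.84 ± 0.065) and Crem (0.80 ± 0.12), and Atf1 fell (−0.36 ± 0.071). Of 10 osteoclast genes 5 rose and 2 fell, Mitf and the proton pump subunit Tcirg1 (−0.33 ± 0.060). Dcstamp, needed for cell fusion, rose by 1.501 ± 0.11, Mmp9 by 0.78 ± 0.14 and Nfatc1 by 0.50 ± 0.10, beside Car2 and Bmp2. Of 13 genes of the RNA interference machinery 6 fell and 2 rose. Tnrc6a (0.79 ± 0.068) and Prkra (0.50 ± 0.093) rose, while Tnrc6c (−0.71 ± 0.12), Xpo5 (−0.67 ± 0.11), Dgcr8 (−0.62 ± 0.10), Drosha (−0.45 ± 0.092), Dicer1 (−0.33 ± 0.092) and Ago1 (−0.19 ± 0.077) fell. The call of Ago1 was lost without replicate 1 of experiment 1 (−0.19), replicate 2 of experiment 1 (−0.19) or replicate 1 of experiment 2 (−0.16) with Cebpb siRNA, or replicate 2 of experiment 1 (−0.17), replicate 1 of experiment 2 (−0.17) or replicate 2 of experiment 2 (−0.20) with control siRNA. Ago2, the slicing Argonaute, did not pass (−0.16 ± 0.067).

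The label of the cells was checked against markers. Macrophage genes were present, with 19 of 20 tested, their summed level lying between 6829 and 7422 RPM with Cebpb siRNA and between 5989.8 and 7211 RPM with control siRNA. Of these 11 were higher with Cebpb siRNA, Adgre1 (F4/80, 0.67) and Csf1r (0.49) among them, and 3 were lower, Cx3cr1 (−2.33), Fcgr1 (−1.37) and Cd68 (−0.23). None of 8 fibroblast and 7 epithelial markers was above the limit in at least 4 libraries. Of the markers of T and NK cells only Lck passed (3.06, 3.25, 2.70 and 4.03 RPM with Cebpb siRNA, against 3.83, 4.83, 5.26 and 5.67 RPM with control siRNA), of B cells only Ighm (9.13, 9.84, 11.4 and 9.23 RPM, against 20.8, 16.6, 21.4 and 22.8 RPM), and of neutrophils only S100a8 (0, 1.05, 0 and 0 RPM, against 2.73, 2.90, 2.28 and 3.48 RPM). The call of Lck as lower was lost without replicate 1 of experiment 2 (−0.35) with Cebpb siRNA, or replicate 2 of experiment 1 (−0.44) or replicate 2 of experiment 2 (−0.46) with control siRNA. Cd3e, Ly6g and Elane were at 0 in all 8. Batf3 and Zbtb46 were the dendritic cell markers tested, with Flt3 and Xcr1 at 0 in all 8.

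The siRNA effect was also compared with that in the 8 libraries given isoproterenol, which have their own controls with the same agent. A different effect was called for 21 genes (0.195% of those tested, limma interaction term), which was 11 without replicate 1 of experiment 2 and 13 without either replicate 1 of experiment 1 or replicate 2 of experiment 2, all with control siRNA. Differences are given as the log2 fold change of Cebpb siRNA over control siRNA with isoproterenol minus that without. Osbp2, which rose by 2.57 without the agent, had a difference of −1.39 ± 0.17. Differences were also negative for other genes that rose without it, Pcdh7, a protocadherin gene (−0.89), Il1rn (−0.65 ± 0.11), Ccl9 (−0.46 ± 0.075) and Cebpd (−0.62 ± 0.13), and for genes that fell without it, Slpi, a protease inhibitor (−0.87), Acod1 (−0.995 ± 0.18) and Ccl4 (−0.58 ± 0.093). The difference was positive for Nr4a2 (1.76 ± 0.20), a nuclear receptor induced by cAMP, whose effect without the agent did not pass (0.31 ± 0.17). It was positive too for Havcr2 (0.99 ± 0.21) and for Il1r2, the decoy receptor of interleukin-1 (1.71 ± 0.35), which rose by 1.39 ± 0.26 without the agent. Il1r2 lay near the lower limit there, with a mean of 4.26 RPM with Cebpb siRNA and 0.889 RPM with control siRNA. Its call as higher was lost in 1 of the 18 alternatives that tested it. The others called were Ccl22, Gpr84, Cytip (1.39), Lyz2 (−0.74), Gfod1 (1.60), Dmpk (1.22), Neurl3 (0.69), Cdr2 (−0.51), Clec4e (−0.37) and Ung (−0.52). Without the agent, Gfod1 was listed at 0 in every control siRNA library and had a mean of 1.87 RPM with Cebpb siRNA. Like Ccl22, it entered the test only through the group in which it is high. Dmpk was at 0 in the control siRNA libraries without the agent other than replicate 1 of experiment 2 (1.44 RPM). Genes of the replication fork (32 tested) and of mitosis (40 tested) were not among the 21, nor was Cebpb. At a share of 0.195% over all tested genes, lists of this size would seldom hold a called gene, so their absence is no result about them.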

How the data were processed

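Total RNA was made into 3′ end libraries by QuantSeq 3′ FWD (Lexogen), per the labels' protocols. Per the submitters' processing notes the build was GRCm38 and the tools include STAR 2.5.3a; for the counting tool and its use of strand the sources name nothing, so overlapping and antisense genes may share reads. The deposited values are log2 of reads per 10⁶ (RPM) over all reads of a library, with 1 RPM or less listed as 0; multiplied back by depth, values gave whole reads within 0.1 read. As the unit is log2, no count test was run.

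Values of the 8 libraries were put on 1 scale with a trimmed mean of log2 ratios (trimmed 30% by ratio and 5% by level, shifts of −0.0916 to 0.0767 on the log2 scale), given a common floor of 1.07 RPM and fitted with limma 3.58.1 (R 4.3.3; trend and robust) with siRNA and experiment as terms, for genes over 0 in at least 4 of 8 libraries. P-values were adjusted by Benjamini-Hochberg over all 10768 genes, threshold 0.05. Fold changes are on this scaled log2 scale with the floor in place, and the fit was tested on simulated data. Far fewer genes changed in the simulation than were called here, and as many up as down. It therefore cannot show how the scaling behaves when most genes change. Gene models are from GENCODE M21 (GRCm38) and promoters from RefSeq; 49557 of 52526 names matched 1 gene model, and 8235 tested genes matched a promoter. The members and the gene lists were chosen with earlier results of these data known. Genes named are the first 12 each way by size of change among those called, of equal sign in both experiments and at a mean of at least 10 RPM, without provisional gene models and pseudogenes; up to 6 members of each list by adjusted p, or any member where at most 16 were tested; subunits of 1 complex together; and Cebpb and the M2 and M1 markers. Other genes named were chosen after their values were seen. Summary entries that name no gene were left out of the tests: with Cebpb siRNA and with control siRNA they held on average 6.96% and 5.45% of reads as unmapped, 21.0% and 21.9% as multimapping, 8.83% and 8.42% as on no feature, and 0.848% and 0.940% as ambiguous. Alternatives were other scalings, filters and floors, no experiment term, the replicate block, each experiment alone, all 16 libraries, no trend, and each library left out in turn.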

Additional observations from a re-analysis of the deposited data

Results flagged for a closer look

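Among 642 sets of 4 libraries checked, for named genes and library measures, 29 had 1 library set apart from the other 3 by a gap that chance gives in about 1 set in 20. The share flagged was close to that rate, so the list as a whole holds no excess over it. Levels are in RPM, with the range of the other 3 libraries of the same group after each. Replicate 1 of experiment 1 with Cebpb siRNA stood apart for Il1rap at 0 (1.23 to 1.30). Replicate 2 of experiment 1 with Cebpb siRNA stood apart for Batf2 at 8.19 (11.8 to 12.2), Prkar2a at 33.1 (22.9 to 24.4), S100a8 at 1.05 (0 to 0) and mt-Rnr1 at 12543 (13339.9 to 13478). Replicate 1 of experiment 2 with Cebpb siRNA stood apart for Bub3 at 303 (335 to 336), Canx at 686 (552 to 555) and Nop56 at 60.7 (45.6 to 47.4). Replicate 2 of experiment 2 with Cebpb siRNA stood apart for Ccl12 at 44.6 (23.4 to 25.3), Cdkn2c at 2.02 (1.32 to 1.43), Chuk at 27.0 (20.3 to 20.7) and Cxcl16 at 168 (184 to 185). The same library stood apart for E2f5 at 8.38 (10.2 to 10.4), Fth1 at 4624 (3992 to 4094), H2-K1 at 212 (121 to 134) and Nr4a2 at 4.99 (3.30 to 3.54). It did so too for Orc3 at 8.70 (12.4 to 12.8), Pbk at 7.64 (10.3 to 10.7), Psmb9 at 55.8 (43.8 to 44.1) and mt-Nd1 at 918 (1038 to 1052). Replicate 1 of experiment 1 with control siRNA stood apart for Prkar2a at 157 (144 to 146), Shmt2 at 107 (91.9 to 93.4) and Spc24 at 49.2 (43.8 to 44.6). Replicate 2 of experiment 1 with control siRNA stood apart for Gins4 at 15.98 (19.8 to 20.4) and Rps26 at 319 (333 to 335). Replicate 1 of experiment 2 with control siRNA stood apart for Dmpk at 1.44 (0 to 0), Maff at 0 (1.47 to 1.76) and Nr4a2 at 4.27 (2.89 to 3.08). Replicate 2 of experiment 2 with control siRNA stood apart for Tnrc6c at 14.3 (16.8 to 17.3).

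The siRNA effect differed between the experiments, by the limma interaction term, for Cmpk2 (−1.38), Irf7 (−1.26), Ifi44 (−1.12) and Rtp4 (−1.31), given as the log2 fold change in experiment 2 minus that in experiment 1. It differed with isoproterenol, given as the log2 fold change with the agent minus that without, for Slpi (−0.87), Ccl4 (−0.58), Ccl9 (−0.46), Havcr2 (0.99), Osbp2 (−1.39), Acod1 (−0.995), Il1r2 (1.71), Nr4a2 (1.76), Cytip (1.39), Il1rn (−0.65), Pcdh7 (−0.89), Ung (−0.52), Clec4e (−0.37), Dmpk (1.22), Cdr2 (−0.51), Ccl22 (1.22), Neurl3 (0.69), Gfod1 (1.60), Gpr84 (−0.45), Lyz2 (−0.74) and Cebpd (−0.62).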

How the results depend on the processing

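Over 19 alternatives, 252 of the 317 genes named beside Cebpb kept their direction and their side of the threshold in each. In all, 47 lost their call in at least 1, among them 28 with experiment 2 alone, 10 with experiment 1 alone and 27 without a term for the experiment, and 13 gained one. Cebpb itself kept both in every alternative. The direction turned only in genes that had not passed: with values as deposited in C1qb (−0.0066), Lyz2 (−0.024), Orc5 (−0.088) and Tgfb1 (−0.061), over all 16 libraries in Bub3 (0.00061) and Ccnd1 (0.0012), in experiment 1 alone in Bub3 (0.036), and in experiment 2 alone in C1qb (−0.095), Ccl5 (−0.0076), Ccnd1 (0.012), Lyz2 (−0.12), Orc5 (−0.15) and Rsad2 (−0.35). With 1 library left out the estimates ran over −0.031 to 0.048 in Bub3, −0.026 to 0.030 in Ccnd1, −0.066 to 0.084 in Orc5, −0.078 to 0.26 in Rsad2 and −0.078 to 0.14 in Tgfb1.

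Counts of calls over all tested genes lay within 1.5 times the reported ones except that experiment 2 alone gave 2023 genes higher. Leaving out each library in turn gave 5981 to 6705 genes called in all. Values as deposited put 41.0% of calls on the higher side, against 51.2% with scaling, and moved the median of all genes to −0.076. On those values none of the nuclear transport, licensing or ribosome biogenesis genes passed as higher, where 2, 1 and 1 had, and 2 mitochondrially encoded transcripts passed as lower. The 4 genes whose effect differed between the experiments were 0 with genes over the floor in at least 1 library and 0 without trend and robust estimation in limma, where the reported fit had 737 at an unadjusted p under 0.05; with 1 library left out the count ran over 0 to 275, the highest without replicate 1 of experiment 2 with Cebpb siRNA, 15 without replicate 2, and 0 without any of the other 6. The 21 whose effect differed with isoproterenol were 5 without a term for the experiment, 10 without trend and robust estimation and 11 to 24 with 1 library left out. The difference in unmapped reads of 1.51 percentage points ran over 1.29 to 1.72, and without either control library of experiment 2 the exact permutation p was 0.0571. The cause of these shifts was not tested.

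With the replicate number within experiments as a replicate block, limma called 3332 genes higher and 3192 lower, and Cebpe passed as a further rising member of the C/EBP family. Deviations of same-numbered libraries from the group means of their own experiment correlated at −0.0921 in experiment 1 and −0.0115 in experiment 2 across 9858 genes, and over both experiments 2 of the 4 Cebpb siRNA libraries correlated best with the control library of their own number, so the numbers are taken as names only.

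Depth limits low genes most: 910 tested genes were at the lower limit in at least 1 library, and their fold changes are understated. Replicates differed by more than counting noise, with a chi-square per degree of freedom of 10.5 and 12.5 with Cebpb siRNA and 6.16 and 4.92 with control siRNA in experiments 1 and 2.

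Counts within gene lists moved by more than 1.5 times more often: 30 times with experiment 2 alone, 9 with experiment 1 alone, 13 without the experiment term, 11 with values as deposited, 5 with genes above the limit in all 8 libraries and 36 over the 8 left-out libraries together. Of reported counts of 5 or more, experiment 2 alone gave MYC, MAX and MXD network 3 higher (reported 5), ribosome biogenesis 9 lower (reported 16), LXR targets and lipid efflux 2 higher (reported 5), glycolysis 2 higher (reported 5), nuclear-encoded respiratory chain 2 higher (reported 10), nuclear-encoded respiratory chain 1 lower (reported 5), mitochondrially encoded transcripts 3 higher (reported 5), lysosomal enzymes and membrane proteins 4 higher (reported 9), NRF2 antioxidant genes 4 lower (reported 7), Toll-like receptors and adaptors 7 higher (reported 11), Fc gamma receptors and ITAM adaptors 3 lower (reported 5), complement 3 higher (reported 6) and macrophage identity 7 higher (reported 11). Experiment 1 alone gave Toll-like receptors and adaptors 5 lower (reported 9) and Fc gamma receptors and ITAM adaptors 3 lower (reported 5). Without the experiment term the counts were MYC, MAX and MXD network 3 higher (reported 5), LXR targets and lipid efflux 2 higher (reported 5), LXR targets and lipid efflux 3 lower (reported 5), glycolysis 2 higher (reported 5), nuclear-encoded respiratory chain 3 lower (reported 5), OAS family 4 higher (reported 7) and interferon-stimulated genes outside the OAS family 19 higher (reported 38). Values as deposited gave MYC, MAX and MXD network 3 higher (reported 5), glycolysis 3 higher (reported 5) and lysosomal enzymes and membrane proteins 5 higher (reported 9), and genes above the limit in all 8 libraries gave interleukin-1 family 5 higher (reported 8).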

Other observations

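Groups outside the main account changed in both directions. Of 10 immunoproteasome genes and constitutive counterparts tested, 4 rose and 2 fell, with a median log2 fold change of 0.12. The subunits Psmb9 (0.54 ± 0.087) and Psmb10 (0.34 ± 0.072) and the activator subunits Psme1 (0.48 ± 0.071) and Psme2 (0.57 ± 0.074), which interferon γ is known to induce, rose, and Psmb8 did not pass (0.17). The constitutive subunit Psmb6 (−0.21 ± 0.059) and the nuclear activator Psme3 (−0.46 ± 0.10) fell.

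Of 10 complement genes and receptors tested, 6 rose and 1 fell, with a median of 0.29. C1qa, a chain of C1q, had 136, 149, 123 and 80.6 RPM with Cebpb siRNA, against 73.7, 71.7, 71.5 and 74.7 RPM with control siRNA (0.80 ± 0.11), and the groups did not overlap. The chain C1qb did not pass (0.087). Of 14 Fc receptors, paired receptors and adaptors tested, 7 rose and 5 fell. Pilra (1.48 ± 0.086), an inhibitory receptor, its activating counterpart Pilrb1 (1.52 ± 0.17) and Cd300ld (1.66 ± 0.085) rose, and Cd300lf (−0.74 ± 0.17) fell. Of 13 LXR targets and lipid efflux genes tested, 5 rose and 5 fell. The sterol exporter Abcg1 (0.58 ± 0.12) and Mylip (0.68 ± 0.14), which marks the LDL receptor for degradation, rose, while the exporter Abca1 (−0.33 ± 0.12) and Npc1 (−0.97 ± 0.10), which moves cholesterol out of lysosomes, fell. The call of Abca1 was lost without replicate 1 of experiment 1 (−0.22) or replicate 1 of experiment 2 (−0.29) with Cebpb siRNA, or replicate 1 of experiment 1 (−0.33) or replicate 2 of experiment 1 (−0.25) with control siRNA.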
